A study of Mus musculus with 9 samples.

Results

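Interferon gamma and 7 further secreted effector cytokines were followed in cultured murine Tc17 cells, which are CD8+ T cells that make interleukin 17. The genes were Ifng, Il2, Csf2, Il3, Il9, Il10, Il24 and Lif, each found by its symbol in the deposited matrix, and they are 8 of its 41388 rows. Naive CD62L+CD44- CD8+ T cells from lymph nodes and spleens of C57BL/6 mice, 8 to 12 weeks old according to the methods, were the starting material. All cultures were stimulated for 2 days with 5 µg/ml anti-CD3 and 0.5 µg/ml anti-CD28, and all received human IL-2 (50 U/ml), human TGF-β (0.5 ng/ml), murine IL-6 (30 ng/ml) and an antibody that neutralizes IFN-γ (5 µg/ml). The Ctrl cultures contained the solvent DMSO at 0.2%, the DMF cultures 20 µM dimethyl fumarate, an electrophile that reacts with thiols, and the DMF + GSH cultures 20 µM DMF together with 50 µM reduced glutathione, the main small thiol of cells. Each group had 3 libraries. Replicate 1 of each group belongs to preparation batch 1, and replicates 2 and 3 belong to batch 2.

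T cells that have met antigen secrete cytokines which act on neighbouring cells through paired receptor chains, and which cytokines they make defines their type. IFN-γ is the signature product of cytotoxic CD8+ T cells and is driven by the T-box factors T-BET and EOMES, whereas IL-2, GM-CSF (Csf2) and IL-3 act on lymphocytes and myeloid cells, IL-9 on mast cells and epithelia, and IL-10 and IL-24 belong to the IL-10 family. Many cytokine transcripts are short-lived because proteins bind AU-rich stretches in their 3′ untranslated regions.

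The libraries held 7671772 to 14511926 reads assigned to genes. A value is a normalized count, that is, a read count divided by a factor for its library, and 1 read was worth 0.742 to 1.42 normalized counts. The cells carried the CD8 markers Cd8a and Cd8b1 and the T cell marker Cd3e. Their summed normalized count was 16574 to 19109 in Ctrl, 17636 to 21311 with DMF and 16182 to 20790 with DMF + GSH. From Ctrl to DMF the mean of Cd8a went from 10146 to 12601, of Cd8b1 from 3248 to 3372 and of Cd3e from 4779 to 4070. Cd4 had a mean of 1.03 to 2.61 per group. The summed CD4 T cell markers, Cd4 and Zbtb7b, were at 41.8 to 86.5 over the libraries, nearly all of it from Zbtb7b (37.4 to 86.5). Summed B cell markers were at 1.06 to 14.6 over the libraries. Summed myeloid markers were at 7.28 to 185 in Ctrl, 6.35 to 22.3 with DMF and 18.5 to 22.0 with DMF + GSH. The highest myeloid value was in Ctrl replicate 3, where Lyz2 was at 119 and Csf1r at 58.3. Genes passed the threshold where the Benjamini-Hochberg adjusted p (p adj) of the limma-trend fit was under 0.01 and the log2 fold change (log2FC) was at least 0.75 in either direction. In all, 11599 genes reached the minimum mean of 10 over the 9 libraries and entered the fit. Of the 8 cytokine genes, Ifng, Lif and Il10 reached this mean and were tested, and the other 5 are described by their reads.

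The sequences upstream of 3 genes are shown because Ifng and Lif passed the threshold and Il9 had the largest ratio of pooled reads. They come from RefSeq on GRCm38.p6, where 6 of the 8 genes had an entry, and each gives the 250 bases before the transcription start in the sense of the gene. The windows are chr10:118440796-118441045 on the plus strand (Ifng), chr13:56482258-56482507 on the minus strand (Il9) and chr11:4257318-4257567 on the plus strand (Lif). Capitals mark matches to the letters searched for on both strands in the 250 bases before and 50 bases after the start, apart from the short NFAT letters named last.
Ifng: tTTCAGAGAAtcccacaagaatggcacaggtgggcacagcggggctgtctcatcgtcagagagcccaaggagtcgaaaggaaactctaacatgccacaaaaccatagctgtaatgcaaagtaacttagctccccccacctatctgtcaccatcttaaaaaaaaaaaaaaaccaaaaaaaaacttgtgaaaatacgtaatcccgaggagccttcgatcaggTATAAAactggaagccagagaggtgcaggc
Il9: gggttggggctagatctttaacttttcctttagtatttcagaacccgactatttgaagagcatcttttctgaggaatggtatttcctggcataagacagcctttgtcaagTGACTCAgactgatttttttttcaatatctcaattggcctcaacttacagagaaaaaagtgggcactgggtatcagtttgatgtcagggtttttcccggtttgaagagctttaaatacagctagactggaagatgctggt
Lif: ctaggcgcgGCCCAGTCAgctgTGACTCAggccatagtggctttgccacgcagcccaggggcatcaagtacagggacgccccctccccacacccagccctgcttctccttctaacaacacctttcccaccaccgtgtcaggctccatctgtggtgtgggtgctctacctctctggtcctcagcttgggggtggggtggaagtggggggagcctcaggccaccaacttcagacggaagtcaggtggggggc
In Ifng the capitals mark TTCNNNGAA, the letters of a STAT site (GAS), at the far end of the window and a TATA box (TATAAA) 30 bases before the start. In Il9 they mark an AP-1 site (TGANTCA) at 140 bases before the start. In Lif they mark the antioxidant response letters TGACNNNGC on the opposite strand at 241 bases and an AP-1 site at 228 bases before the start. Among all 32851 promoter windows of the same length, 8.3% held the GAS letters, 13.6% the TATA box, 7.81% the AP-1 site and 12.4% the antioxidant response letters. The T-box letters TCACACCT were in 1.28% of all windows and in 0 of the 6 cytokine windows. The short NFAT letters GGAAA were in all 6, and in 61.3% of all windows. The antioxidant response letters also lay across the RefSeq start of Csf2, which is upstream of the span given for this gene below. The TATA box was also found in Il2, 31 bases before its start. These matches are descriptions of letters and not of binding.

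A second feature of the transcripts was the AU-rich motif. The 9 letters TTATTTATT were found in the longest annotated 3′ untranslated region of 3 of the 8 genes, on the transcribed strand and with overlapping matches counted, namely 4 times in Csf2, 2 times in Lif and 1 time in Il2. The first site of each is printed with 10 bases on either side and the motif in capitals, read from GENCODE vM21 transcripts of GRCm38 at chr11:54247329-54247357 on the minus strand (Csf2), chr3:37120898-37120926 on the minus strand (Il2) and chr11:4272039-4272067 on the plus strand (Lif).
Csf2: ttttaaatatTTATTTATTtatttattta
Il2: ttatctgaaaTTATTTATTatattgaatt
Lif: aaaggggcctTTATTTATTatttaaaact
Among genes with a 3′ region within 20% of the same length, 2.38% held the motif for Csf2, 3.26% for Il2 and 14.6% for Lif. Ifng, with a region of 631 bases, held the core ATTTA 6 times and the longer motif 0 times. The core was present in all 8 genes, from 1 time in Il3 to 9 times in Csf2.

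Ifng encodes the cytokine that activates macrophages and raises antigen presentation. The gene (ENSMUSG00000055170) lies at chr10:118441046-118445892 on the plus strand of GRCm38 and shares its span with Gm49751, a model on the same strand to which part of its reads could belong. Its normalized count was 59.2, 139 and 118 in Ctrl replicates 1, 2 and 3, 706, 597 and 921 in the DMF replicates, and 94.6, 118 and 82.6 in the DMF + GSH replicates. The lowest DMF library was above the highest library of either other group, while Ctrl and DMF + GSH overlapped. The means were 106 ± 41.5 in Ctrl, 741 ± 165 with DMF and 98.4 ± 18.0 with DMF + GSH (SD, n = 3).

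Ifng rose with DMF by a log2FC of 2.87 (SE 0.25, p adj = 0.00124, limma-trend), and within the replicate numbers the level was 11.9-fold, 4.28-fold and 7.81-fold higher in replicates 1, 2 and 3. Adding glutathione to DMF lowered Ifng against DMF alone, and the log2FC was -2.89 (SE 0.25, p adj = 0.00315 in limma-trend). Between DMF + GSH and Ctrl the log2FC was -0.03 (p adj = 1 after rounding), with replicate 1 higher and replicates 2 and 3 lower than their Ctrl counterpart. Within preparation batch 1, which has 1 library per group, Ifng was 3.55 higher with DMF on the log2 scale, and within batch 2, with 2 per group, 2.52 higher. The difference of DMF + GSH from DMF was -2.89 in batch 1 and -2.90 in batch 2. The call for DMF was lost without Ctrl replicate 1 (log2FC 2.52, p adj = 0.0107) or without DMF replicate 1 (2.70, p adj = 0.0141), fits in which 2 and 5 of the 11599 genes passed in place of 335. The call for DMF + GSH against DMF was lost without DMF replicate 1, DMF replicate 3, or DMF + GSH replicate 1 or 2, with p adj from 0.0142 to 0.0356, and in these fits 4, 0, 0 and 0 of all genes passed in place of 63. The loss was thus not particular to Ifng. With the replicate number as a block, Ifng passed in both comparisons whichever of the 9 libraries was left out. In RNA from whole cultures, more cells that transcribe Ifng and more Ifng RNA per cell cannot be told apart.

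Natural killer cells also make IFN-γ. The summed normalized count of their markers Ncr1 and Klrb1c was 0 in all 3 DMF libraries, 0.929 to 4.16 in Ctrl and 0 to 2.20 with DMF + GSH. These values are near the detection limit, and a count of 0 allows a level of up to 3 reads. The γδ T cell marker Sox13, 1 of 2 listed markers and the 1 found in the matrix, was at 3.72 to 7.11 in Ctrl, 3.87 to 13.8 with DMF and 2.97 to 5.83 with DMF + GSH. The naive CD8+ T cells were sorted by flow cytometry before culture. The part of natural killer cells and γδ T cells in the level of Ifng was not tested.

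Lif encodes leukemia inhibitory factor, a member of the IL-6 family that signals through Lifr and Il6st. The gene (ENSMUSG00000034394) lies at chr11:4257557-4272514 on the plus strand of GRCm38. Its normalized count was 43.7, 153 and 146 in Ctrl replicates 1, 2 and 3, 28.6, 71.1 and 78.4 in the DMF libraries, and 36.3, 92.8 and 84.6 in those with glutathione. Replicate 1 was the lowest library of each group, and the ranges of Ctrl and DMF overlapped because the Ctrl library of replicate 1 lay below the DMF libraries of replicates 2 and 3. Within each replicate number DMF was lower than Ctrl, at 0.654, 0.464 and 0.535 times its level.

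The means of Lif were 114 ± 61.4 in Ctrl, 59.3 ± 26.9 with DMF and 71.2 ± 30.5 with DMF + GSH (SD, n = 3). Lif fell with DMF by 0.86 on the log2 scale (SE 0.16, p adj = 0.00722, limma-trend with the batch in the model). The differences were -0.59 in preparation batch 1 and -1.0 in batch 2. Without the batch term p adj was 0.255, and with only the 6 libraries compared it was 0.0155. The call was also lost when any of 8 of the 9 libraries was left out, with p adj from 0.0110 to 0.0556. In these fits the log2FC ran from -1.01 to -0.79. Of all 11599 genes, 2, 26 and 680 passed without Ctrl replicates 1, 2 and 3, in place of 335. There were 5, 668 and 12 without DMF replicates 1, 2 and 3, and 55 and 320 without DMF + GSH replicates 1 and 2. The call of Lif was thus also lost in fits in which more genes passed. Without a block the call was kept only when DMF + GSH replicate 3 was left out. With the replicate number as a block p adj was 0.000376, and it was 0.000294 to 0.00779 with each of the 9 libraries left out, so that Lif passed each time. DMF + GSH was above DMF in all 3 replicate numbers, but the log2FC of 0.27 (SE 0.16) did not pass (p adj = 0.235). Against Ctrl, DMF + GSH was lower in all 3 replicate numbers with a log2FC of -0.59 that did not pass either (p adj = 1 after rounding).

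Il10 encodes a cytokine that restrains inflammation and lies at chr1:131019845-131024974 on the plus strand of GRCm38 (ENSMUSG00000016529). Its normalized count was 18.7, 14.9 and 37.0 in Ctrl replicates 1, 2 and 3, 24.3, 30.8 and 42.6 in the DMF libraries, and 19.8, 14.8 and 45.7 in the DMF + GSH libraries. Replicate 3 was the highest library of each group and the 3 groups overlapped. Although DMF was above Ctrl in all 3 replicate numbers, by 1.30-fold, 2.07-fold and 1.15-fold, the log2FC of 0.52 (SE 0.43) did not pass (p adj = 0.385, limma-trend), and it was 0.16 without Ctrl replicate 2 and 0.85 without Ctrl replicate 3. The difference of DMF + GSH from DMF was -0.40 on the log2 scale (p adj = 0.528). Without a block it was 0.03 without DMF + GSH replicate 2 and -0.82 without DMF + GSH replicate 3, and with the replicate block it was -0.60 to -0.12 whichever library was left out. The counts behind these values were 60 reads in Ctrl, 103 with DMF and 85 with DMF + GSH. The pooled ratio of DMF to Ctrl was 1.5, with a 95% counting interval of 1.08 to 2.09 that does not hold the spread between libraries.

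**Figure D1:**
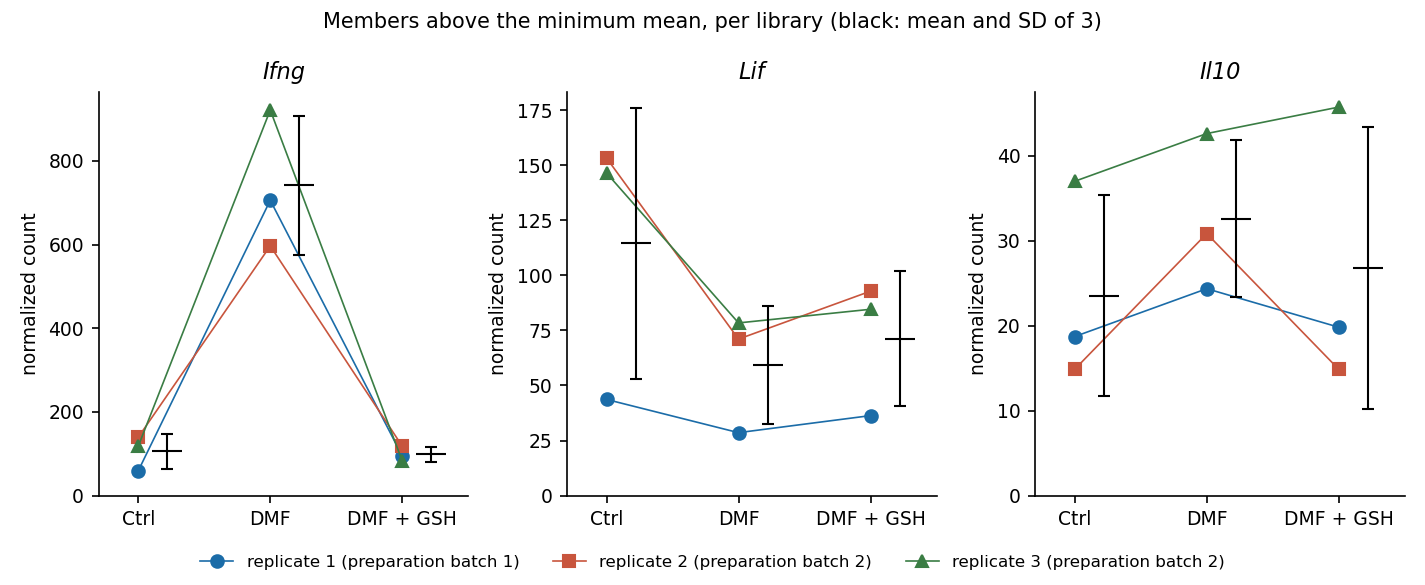
Normalized counts of Ifng, Lif and Il10 in the 9 libraries by group, with lines joining libraries of the same replicate number and the mean and SD of the 3 libraries in black at the right of each group. The DMF libraries of Ifng lie between 597 and 921, above all other libraries, whereas replicate 1 is lowest in each group for Lif and replicate 3 is highest in each group for Il10.

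Of the 3 genes tested, Ifng rose and Lif fell with DMF. The comparison of DMF + GSH with DMF uses the same DMF libraries as that of DMF with Ctrl, so the opposite directions are not independent. Against Ctrl 1.22% of all genes tested passed as higher with DMF and 1.67% as lower. Against DMF alone, Ifng was lower with DMF + GSH and 0 of the 3 were higher, where 0.276% of all genes passed as lower and 0.267% as higher. For DMF + GSH against Ctrl, limma-trend called 0 of the 3 genes, and so did edgeR and DESeq2. Among all genes tested 0% passed, and 222 (limma-trend), 213 (edgeR) and 100 (DESeq2) had an unadjusted p under 0.05. These numbers changed with single libraries. In limma-trend without a block, the 335 genes past the threshold for DMF against Ctrl became 2, 26 and 680 without Ctrl replicates 1, 2 and 3, 5, 668 and 12 without DMF replicates 1, 2 and 3, and 55 without DMF + GSH replicate 1. The 63 genes for DMF + GSH against DMF became 7 and 252 without Ctrl replicates 1 and 3, 4, 480 and 0 without DMF replicates 1, 2 and 3, and 0, 0 and 452 without DMF + GSH replicates 1, 2 and 3. In the 3 fits with 0 genes, 3076 to 3210 genes had an unadjusted p under 0.05. Groups without overlap were common. With DMF 21.6% of all genes tested lay wholly above Ctrl and 19.8% wholly below, and with DMF + GSH 17.8% lay wholly above DMF and 20.5% wholly below. Of the 3 cytokine genes tested, Ifng lay wholly above Ctrl with DMF and wholly below DMF with DMF + GSH, and Lif and Il10 overlapped in both. Among the 5 genes below the minimum, to which these shares do not apply, Il9 and Il3 lay wholly above Ctrl with DMF. Il9 and Il24 lay wholly below DMF with DMF + GSH. For Il3 and Il24 this separation is not resolved, since their lowest DMF libraries held 3 reads and 1 read. A count of 0 in the other group allows as much. For Il9 the separation rests on 6 reads in DMF replicate 2, against up to 3 reads in a library of the other groups.

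The other 5 genes were at or near the detection limit, and their levels rest on few reads. A count of 0 in a library allows a level of up to 3 reads, which equals 2.23 to 4.27 normalized counts. Intervals given for them cover counting error only and not the spread between cultures. Il9 encodes a growth factor of mast cells and T cells and lies at chr13:56479277-56482246 on the minus strand of GRCm38 (ENSMUSG00000021538). It had 0, 0 and 2 reads in Ctrl replicates 1, 2 and 3, 35, 6 and 40 reads with DMF, and 0, 0 and 3 reads with DMF + GSH, or 0, 0 and 2.84, then 37.0, 5.14 and 38.7, and then 0, 0 and 2.92 normalized counts. All DMF libraries were above all other libraries, and DMF replicate 2 was the low library of its group. The separation rests on its 6 reads, against 2 reads in Ctrl replicate 3 and 3 reads in DMF + GSH replicate 3. The mean of the 9 libraries was 9.63, just under the minimum.

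The pooled level of Il9 with DMF was 35.3 times that in Ctrl (95% counting interval 9.46 to 296) and 28.2 times that with DMF + GSH (9.31 to 140). Il24, a gene of the IL-10 family 132391 bases from Il10 at chr1:130882074-130887454 on the minus strand (ENSMUSG00000026420), had the same low library. It had 1, 0 and 1 reads in Ctrl, 13, 1 and 16 reads with DMF and 0 reads in each DMF + GSH library. Thus DMF replicate 2 held 1 read, as many as 2 of the Ctrl libraries, and the DMF and Ctrl libraries overlapped. Pooled, Il24 with DMF was at 13.1 times its level in Ctrl (3.32 to 113) and its mean was at least 3.56-fold higher than with DMF + GSH, taking 3 reads in each library of that group as the limit.

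In the limma-trend fit without a minimum, Il9 gave p adj = 0.0101 and Il24 p adj = 0.0657 for DMF against Ctrl, and neither passed. The same held for the count model of edgeR on recovered reads with a minimum mean of 1, with p adj of 0.0127 and 0.0606. When this count model took the replicate number as a block, both passed for DMF against Ctrl (p adj = 7.00e-07 for Il9 and 0.00350 for Il24) and for DMF + GSH against DMF (4.76e-07 and 0.000175). Both genes reached the minimum mean of 1 only through the DMF libraries, in which they were high, so that these calls lend no support to a difference. In this blocked count model 1.98% of the 16365 genes passed as higher and 3.15% as lower with DMF, and 2.33% as higher and 1.87% as lower for DMF + GSH against DMF. Markers of mast cells and basophils (Mcpt8, Cpa3 and Fcer1a), cells of which mast cells respond to IL-9, had summed normalized counts of 0 to 30.7 in Ctrl, 0 to 2.57 with DMF and 4.45 to 35.2 with DMF + GSH. The range of Ctrl overlapped with those of both other groups. The part of mast cells and basophils in the levels of Il9 and Il24 was not tested.

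Il3 and Csf2, neighbours on chromosome 11 that encode growth factors of myeloid cells, were barely detected. Il3 (ENSMUSG00000018914, chr11:54265303-54267277, minus strand) had 0, 1 and 1 reads in Ctrl replicates 1, 2 and 3, 4, 5 and 3 reads with DMF, and 0, 4 and 1 reads with DMF + GSH. Its DMF libraries lay above the Ctrl libraries in normalized counts and overlapped with DMF + GSH. The 3 reads in DMF replicate 3 are no more than a count of 0 allows, so the separation from Ctrl is not resolved. The pooled ratio of DMF to Ctrl was 5.23 (1.16 to 48.1), and p adj was 0.0939 in limma-trend without a minimum. Csf2 (ENSMUSG00000018916, chr11:54247271-54249667, minus strand) had 0 reads in each Ctrl library, 0, 2 and 1 reads with DMF, and 0, 5 and 1 reads with DMF + GSH. It overlaps the antisense gene Gm12223, and reads of the pair cannot be told apart without strand. With 3 reads or fewer in Ctrl and DMF, no ratio is given between these groups. None is given for DMF + GSH against Ctrl either, since the mean of DMF + GSH was under the level of 3 reads per library and 5 of its 6 reads came from replicate 2.

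Il2 encodes the T cell growth factor that was also supplied in the medium as protein, which adds no RNA. The gene (ENSMUSG00000027720) lies at chr3:37120523-37125959 on the minus strand and overlaps Adad1 on the opposite strand, whose mean was 0.103 over the 9 libraries. Il2 had 3, 9 and 1 reads in Ctrl replicates 1, 2 and 3, 2, 0 and 1 reads with DMF, and 0, 1 and 1 reads with DMF + GSH. It was lower with DMF in each replicate number in normalized counts, though these groups overlapped. In replicate 3, with 1 read in both, the difference was in the worth of 1 read alone. The DMF + GSH libraries lay wholly below the Ctrl libraries, by the least between replicates 3, which had 1 read in each group and differ there in the worth of 1 read alone. Apart from Ctrl replicate 2, with 9 reads, the libraries of these groups held 3 reads or fewer, so this separation is not resolved. The pooled ratio of DMF to Ctrl was 0.201 (0.0368 to 0.732) and that of DMF + GSH to Ctrl 0.128 (0.0141 to 0.567). Of the 13 reads in Ctrl, 9 came from replicate 2. In limma-trend without a minimum Il2 did not pass (p adj = 0.224).

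**Figure D2:**
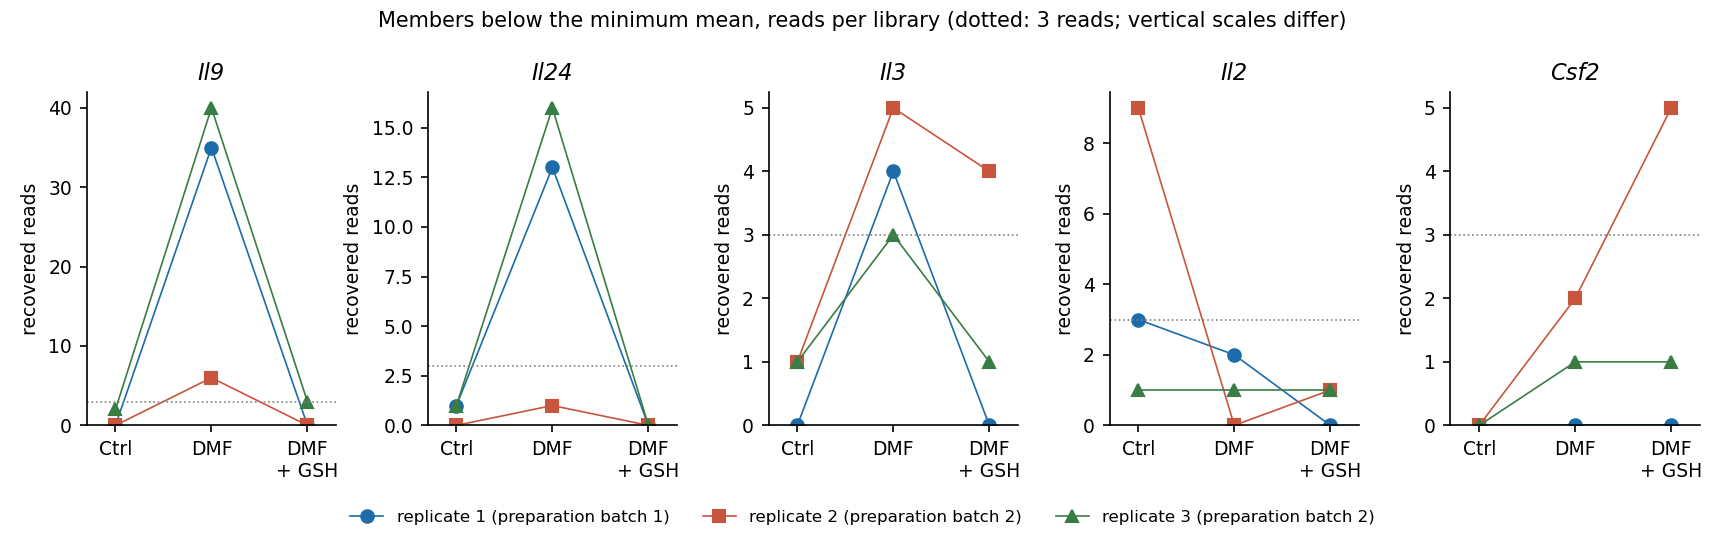
Recovered reads of Il9, Il24, Il3, Il2 and Csf2 in each of the 9 libraries by group, with lines joining libraries of the same replicate number and a dotted line at 3 reads, and with a vertical scale for each gene. Il9 reaches 35 and 40 reads and Il24 13 and 16 reads in DMF replicates 1 and 3, against 6 and 1 reads in DMF replicate 2, while Il3, Il2 and Csf2 stay at or below 9 reads.

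Levels of different genes were compared per kb of exonic length. In Ctrl Ifng was highest with a mean of 81.5 normalized counts per kb (libraries 45.7 to 108), followed by Lif with 26.3 (10.0 to 35.2) and Il10 with 17.9 (11.3 to 28.2). The libraries of Lif and Il10 overlapped, so that their order is not resolved. With DMF Ifng reached 572 per kb (461 to 711) and was followed by Il9 with 50.3 (9.58 to 72.2), Il10 with 24.9 (18.6 to 32.5) and Lif with 13.6 (6.57 to 18.0). Il9 overlapped with Il10 because of DMF replicate 2, and all Lif libraries were below all Il10 libraries. With DMF + GSH the order was Ifng at 76.01 per kb (63.8 to 91.2), Il10 at 20.4 (11.3 to 34.9) and Lif at 16.4 (8.35 to 21.3), and the latter pair overlapped. The remaining genes were at 7.24 per kb or less in every group.

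The receptor chains for these cytokines were largely expressed. Of 17 listed chains 11 were tested, of which 5 were higher and 6 lower with DMF, with a median log2FC of -0.03 against 0.0052 over all genes, and after quantile normalization 4 were higher and 7 lower. Ifngr1, the ligand-binding chain of the IFN-γ receptor, was the 1 that passed, and it fell by 0.84 on the log2 scale (SE 0.14, p adj = 0.00649) from 2285 ± 144 to 1291 ± 298 normalized counts. Ifngr2, its partner chain, was at 325 ± 47.7 in Ctrl and 226 ± 18.1 with DMF (log2FC -0.51, p adj = 0.0187). With DMF + GSH the mean of Ifngr1 was 2096 ± 225, and its log2FC of 0.72 against DMF did not pass (p adj = 0.0134).

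Il2ra, the high-affinity chain of the IL-2 receptor, had 8656 ± 2563 normalized counts in Ctrl, 17797 ± 4149 with DMF and 8337 ± 2712 with DMF + GSH. Its log2FC with DMF of 1.05 did not pass with the batch in the model (p adj = 0.0170) and did with the replicate block (p adj = 7.14e-08). The same was true of its log2FC of -1.11 for DMF + GSH against DMF (p adj = 0.0179 with the batch and 5.99e-08 with the block). Il2rb and Il2rg, the signalling chains of the same receptor, had log2FC of 0.01 and -0.24. Il6st, the shared chain through which Lif signals, was at 2351 ± 375 in Ctrl and 1728 ± 178 with DMF (log2FC -0.44, p adj = 0.0327), and Lifr itself had a mean of 3.12 in Ctrl and was below the minimum. The chains Csf2rb, Csf2rb2 and Il9r were below it too, whereas Il10ra and Il10rb were tested with log2FC of 0.20 and -0.03.

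Transcription factors known to control Ifng and related cytokines formed the next list, of which 13 of 14 were tested. With DMF 4 were higher and 9 lower, and the median log2FC was -0.17. The most abundant, Nfatc1, Runx3, Maf and Bhlhe40, had log2FC of -0.10, -0.28, -0.70 and -0.44 and did not pass. Eomes, a T-box factor of cytotoxic cells, rose from 28.2 ± 18.9 to 130 ± 7.89 normalized counts (log2FC 2.35, SE 0.28, p adj = 0.00276), and Tbx21, which encodes T-BET, rose from 270 ± 110 to 514 ± 132 (log2FC 0.98, SE 0.15, p adj = 0.00564). Against DMF alone, Eomes was lower with DMF + GSH, at 32.5 ± 19.6 (log2FC -2.12, p adj = 0.00685). Tbx21 was at 283 ± 43.5 with DMF + GSH, and its log2FC of -0.84 passed with the replicate block (p adj = 3.70e-05) but not with the batch (p adj = 0.0116). With the block Stat4 (479 ± 159 in Ctrl and 251 ± 72.3 with DMF) passed as lower, without a call in the batch model. Prdm1 (4.59 ± 2.39 and 29.1 ± 15.8) likewise passed as higher with the block only, but it reached the minimum mean through the DMF libraries alone, so that its call lends no support to a difference.

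Of 20 genes known to respond to IFN-γ, 18 were tested, although the cultures contained a neutralizing antibody. With DMF 12 were higher and 6 lower (11 and 7 after quantile normalization and in edgeR, 10 and 8 in DESeq2), with a median log2FC of 0.18. Iigp1, an inducible GTPase, rose from 248 ± 64.8 to 720 ± 124 normalized counts (log2FC 1.55, SE 0.14, p adj = 0.00124). Irf8, a transcription factor, rose from 2948 ± 683 to 7807 ± 1732 (log2FC 1.41, SE 0.20, p adj = 0.00457). Both were lower with DMF + GSH than with DMF, by log2FC of -1.10 (p adj = 0.00646) and -1.43 (p adj = 0.00774). Most of the list did not pass. B2m and Tap1, which serve antigen presentation, had log2FC of -0.04 and -0.02, and the GTPase Igtp had 0.48 (p adj = 0.00543), under the fold required. Gbp2 had 4560 ± 701 normalized counts in Ctrl and 2234 ± 941 with DMF, and its log2FC of -1.10 passed as lower with the replicate block (p adj = 1.37e-07) but not with the batch (p adj = 0.0145).

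Among 22 other cytokine genes 8 were tested. With DMF 3 were higher and 5 lower, with a median log2FC of -0.34. Lta, which encodes lymphotoxin alpha, rose from 259 ± 44.1 to 1239 ± 639 normalized counts (log2FC 2.11, SE 0.39, p adj = 0.00739), and DMF replicate 2 was its lowest DMF library at 569. Il17a, Il17f and Il21, cytokines of type 17 cells, fell by 2.15, 1.39 and 1.34 on the log2 scale and were higher again with DMF + GSH than with DMF, by 2.06, 1.45 and 1.2 (p adj = 0.00652, 0.00417 and 0.00646). Lta was at 229 ± 93.5 with DMF + GSH, and its log2FC of -2.35 against DMF passed with the replicate block (p adj = 1.74e-08) but not with the batch (p adj = 0.0107). Tnf, whose log2FC with DMF was 0.37 (p adj = 0.238), had -0.78 against DMF alone with DMF + GSH (p adj = 0.0338, and 0.00018 with the block). Tgfb1, Il16 and Osm did not pass, with log2FC of 0.34, -0.50 and -0.18. Across the genes tested with the replicate block, 2.53% passed as higher and 4.28% as lower with DMF, and 3.28% as higher and 2.41% as lower for DMF + GSH against DMF.

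The 7 genes for proteins that bind AU-rich elements or degrade cytokine transcripts were all tested, and 0 passed with DMF in limma-trend, edgeR and DESeq2, with 5 at an unadjusted p under 0.05 in each tool, as were 4811, 4805 and 4249 of all 11599 genes. Of these 2 were higher and 5 lower (3 and 4 after TMM rescaling and after quantile normalization), with a median log2FC of -0.18. Zfp36, which encodes tristetraprolin, was at 1319 ± 362 in Ctrl, 953 ± 142 with DMF and 1584 ± 444 with DMF + GSH (log2FC with DMF -0.44, p adj = 0.0274). Elavl1, which encodes the stabilizing protein HuR, had 2024 ± 134 in Ctrl and 2447 ± 121 with DMF (log2FC 0.28, p adj = 0.0238). Khsrp and Zfp36l2, which promote decay, had log2FC of 0.18 and -0.24. For DMF + GSH against DMF 4 were higher and 3 lower, the median was 0.14 and 0 passed in these tools, with 5 (limma-trend), 4 (edgeR) and 4 (DESeq2) at an unadjusted p under 0.05, against 4392, 4435 and 3883 of all genes. Over all genes the median of that comparison was -0.0017.

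**Figure D3:**
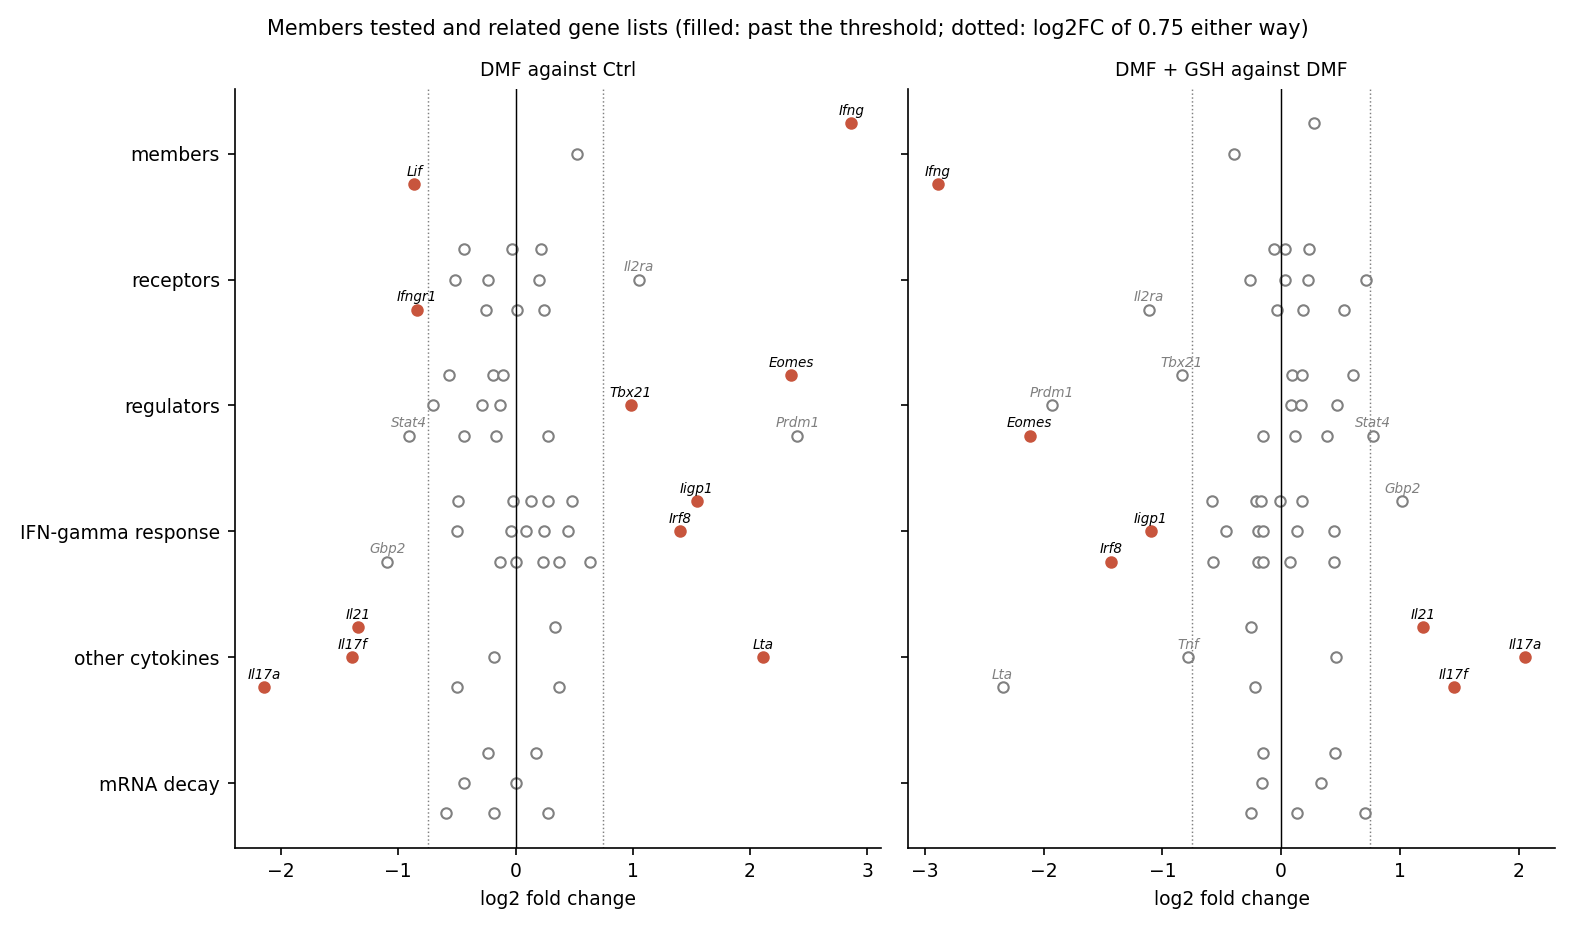
Log2 fold changes of the 3 cytokine genes tested and of 5 related gene lists for DMF against Ctrl (left) and DMF + GSH against DMF (right), where each point is a gene, filled points passed the threshold and open points did not. Ifng stands at 2.87 and -2.89, and most genes of the receptor, response and decay lists lie between the dotted lines at 0.75 in either direction.

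The genomic neighbours were the 3 nearest protein-coding genes on either side of each cytokine gene, 42 genes in all because some are shared, of which 18 were tested. With DMF 8 were higher and 10 lower with a median log2FC of -0.04, and Il21, which lies 96800 bases from Il2, was the 1 that passed. Around Ifng the neighbours Il22 and Iltifb, encoding IL-22 and its close copy, were at 0 in all libraries. How reads shared by such similar genes were counted is not given, so this does not show that they were silent. Mdm1, Dyrk2 and Cand1, also around Ifng, had log2FC of -0.19, -0.22 and 0.20. Around Il10 and Il24, the family members Il19 and Il20 had means of 0.432 and 0.244 over the 9 libraries, and Mapkapk2, 28726 bases from Il10, had a log2FC of 0.25 (p adj = 0.0213). Next to Il3 and Csf2, Acsl6 had 27.9 ± 9.14 normalized counts in Ctrl and 75.7 ± 37.8 with DMF and P4ha2 had 40.0 ± 24.2 and 17.2 ± 3.95, and both passed with the replicate block (p adj = 0.000875 and 0.00601) and not with the batch. Osm, which encodes a relative of Lif and lies 16531 bases from it, had a log2FC of -0.18 (p adj = 0.482), and Gatsl3, at 35148 bases, had -1.20, which passed with the block (p adj = 1.08e-05).

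**Figure D4:**
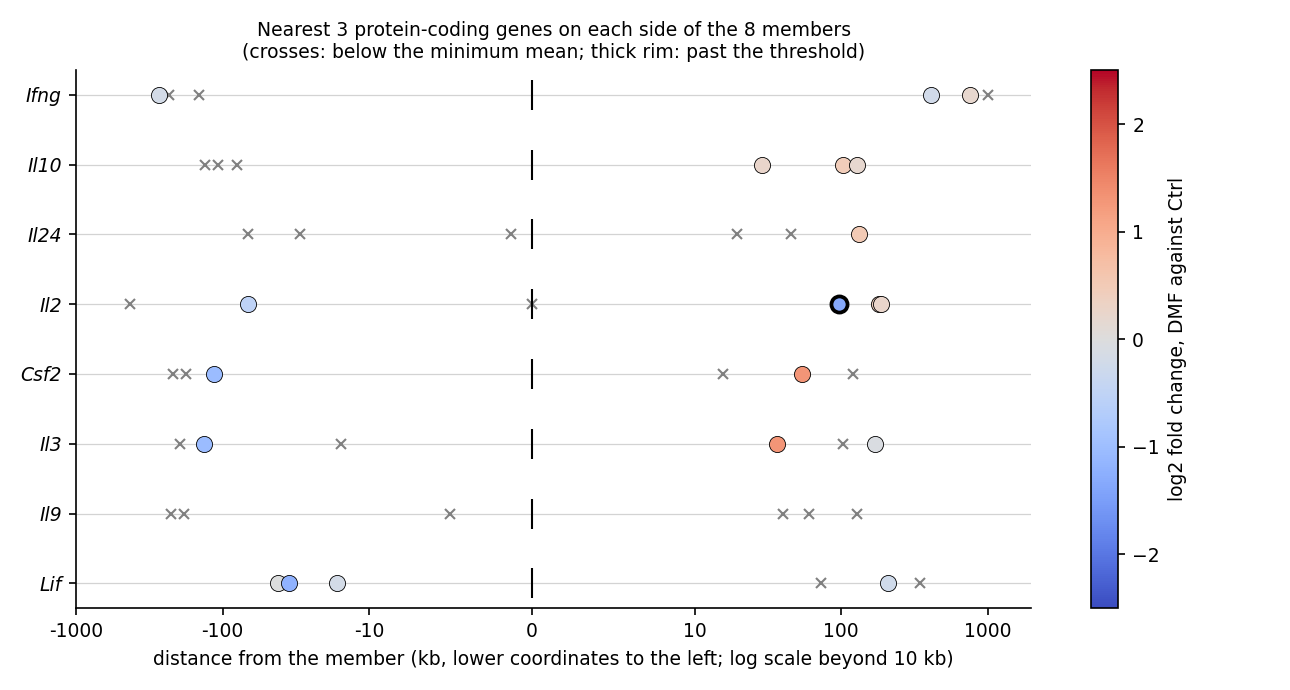
Position of the 3 nearest protein-coding genes on each side of the 8 cytokine genes, as distance in kb on a scale that is logarithmic beyond 10 kb, coloured by log2 fold change of DMF against Ctrl. Crosses are genes below the minimum mean, and Il21 beside Il2, with a log2FC of -1.34, is the 1 point with a thick rim, which marks a gene past the threshold.

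Over the 9 libraries, the genes whose log2(normalized count + 1) was most like that of Ifng were Gm12250 (Pearson r = 0.985), Wdr73 (0.977), Rps6kc1, Rpl12 and Cd200 (each 0.972), among the 11599 genes tested. Of these, Cd200 rose with DMF from 159 ± 27.5 to 470 ± 122 normalized counts (log2FC 1.53, p adj = 0.00297), and Gm12250 was at 206 ± 16.3 and 342 ± 10.0 with a log2FC of 0.73 just under the threshold. For Lif the genes most alike were Midn (0.974), Gm3604 and Kdm6a (0.964 and 0.963), and for Il10 Pik3r2 (0.975), Gcat (0.966) and Plau (0.957). These values are descriptions, since the libraries share groups and batches. Among the 3 cytokine genes tested r was 0.35 for Ifng with Il10, -0.18 for Ifng with Lif and 0.11 for Il10 with Lif.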

How the data were processed

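RNA-Seq of murine Tc17 cells comprised 9 libraries in 3 groups of 3, assigned from their labels. The authors sequenced single reads of 50 bp from poly(A) libraries, aligned them with STAR 2.4.0b to Ensembl GRCm38 (annotation release 76) and counted them with featureCounts. The deposited signal is the count per gene divided by a size factor per library, and the authors' table also holds their own log2 fold change of Ctrl and DMF, its test score and p-values, which were not used. The strand setting of the counting, and how reads shared by similar genes were treated, are not given in the sources used here. Division by the value of 1 read gave whole reads for 100% of values (tolerance 0.01), and depth was 7671772 to 14511926 reads. The study describes its experiments in general as independent biological replicates, but the labels do not say which animals or cultures the libraries came from, so p-values measure the spread between these libraries.

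The test was limma-trend (limma 3.58.1, R 4.3.3) on log2(normalized count + 1) over 11599 genes with a mean of at least 10, with group and preparation batch, all 9 libraries in 1 fit and Benjamini-Hochberg adjustment. Fold changes on this scale understate those of low genes. edgeR 4.0.16 (quasi-likelihood) and DESeq2 1.42.0 on the recovered reads were alternatives, and edgeR called 338 genes for DMF against Ctrl, 66 for DMF + GSH against DMF and 0 for DMF + GSH against Ctrl, while DESeq2 called 554, 384 and 0. Genes below the minimum were named by values and reads, with exact 95% intervals conditional on the pooled reads. The smallest p of a two-sided permutation test of 3 against 3 libraries is 0.1, so none was used. Scripts were tested on simulated data.

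The cytokine genes, gene lists, motifs and neighbours were chosen with earlier results of these data known. For each gene list the text names the genes past the threshold and up to 4 others of largest mean, and it names the 3 nearest protein-coding neighbours on either side in part, and the 5 genes most like Ifng and 3 most like Lif and Il10. Outside this rule, Ifngr2, Il10ra, Il10rb, receptor chains below the minimum, Prdm1 and Stat4 were named after their values were seen. The search for AU-rich motifs and the count model with a minimum mean of 1 were added after seeing the data. After subtraction of group means, libraries with the same replicate number in different groups correlated with r of 0.447 to 0.578 (9 pairs), and those with different numbers and groups with -0.471 to -0.0621 (18 pairs). The numbers, which the labels give, were therefore taken as pairs. Positions come from GENCODE vM21 (GRCm38), where 40254 of 41388 identifiers were found, and promoters from RefSeq (GRCm38.p6). Python 3.11.15, pandas 2.3.3, SciPy 1.17.1 and Matplotlib 3.10.9 were used.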

Additional observations from a re-analysis of the deposited data

How the results depend on the processing

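The number of cytokine genes past the threshold for DMF against Ctrl was 2 of 3 tested. It was 1 without the batch term and with only the 6 libraries compared, where Lif was lost, and 0 to 2 when each library was left out in turn without a block, with 0 without Ctrl replicate 1 or DMF replicate 1, where 2 and 5 of the 11599 genes passed in place of 335. For DMF + GSH against DMF it was 1, and 0 to 1 with a library left out, while 0 to 480 of all genes passed in place of 63. In the edgeR count model with a minimum mean of 1 and the replicate block, added after seeing the data, these numbers were 4 and 3, with Il9 and Il24 added, which reached that minimum only through the DMF libraries and so lend no support. With a library left out and no block, the log2FC of Ifng ranged from 2.52 to 3.10 for DMF against Ctrl and from -3.12 to -2.69 for DMF + GSH against DMF. With the replicate block and a library left out it ranged from 2.52 to 3.20 and from -3.23 to -2.63, and Ifng and Lif kept their calls. With the replicate block in limma-trend, which takes the replicate numbers as pairs, the numbers were again 2 and 1, and no other call of the 3 genes changed. Over all alternatives Ifng passed in 31 of 33 for DMF against Ctrl and in 29 of 33 for DMF + GSH against DMF, Lif in 23 of 33 for DMF against Ctrl, and Il10 in 0 of 32. For DMF + GSH against Ctrl 0 of the 3 genes passed in any. Other pseudocounts (0.5 and 4), no minimum, a minimum of 50 (which gave no value for Il10), quantile normalization, TMM rescaling, robust eBayes, DESeq2 and edgeR changed no call of Ifng or Lif. The gene lists were refitted with TMM rescaling, quantile normalization, the replicate block, edgeR and DESeq2 and not with libraries left out. Their genes called in limma-trend with the batch were also called by edgeR and DESeq2, which added Gatsl3 for DMF against Ctrl, and DESeq2 added Tbx21, Lta, Acsl6 and Gatsl3 for DMF + GSH against DMF. Il2, Il3 and Csf2 had at most 9 reads per library, which limits their precision.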
